A study of Mus musculus with 2 samples.

Results

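The 42 Hox and Cdx genes of the mouse were followed in R1 embryonic stem cells, an established mouse line. All 39 symbols of the form Hox, a cluster letter and a number were taken, with Cdx1, Cdx2 and Cdx4, out of 32285 genes in the deposited tables. Each had at least 1 UMI (unique molecular identifier, 1 per captured RNA molecule) in the study. The cells came from 2 libraries, 1 per culture condition, both harvested after 72 hours in N2B27 medium. LB cells received LIF and BMP4 on gelatin. LBPXRS cells received LIF and BMP4 with PD0325901 (a MEK inhibitor), Xav939 (a tankyrase inhibitor acting on the WNT pathway), SB431542 (an inhibitor of the NODAL and activin receptors) and a compound labelled Resorcyclic lactone, on fibronectin. The compounds and the substrate changed together, so their effects cannot be told apart. The labels do not say whether the libraries came from the same culture or subclone of the line.

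Hox genes encode homeodomain transcription factors that give cells of the embryo their position along the head-to-tail axis. They sit in clusters named a to d, and genes of low number (anterior paralogues) come on earlier and further forward than genes of high number (posterior paralogues). Cdx genes encode related homeodomain factors that act upstream of many Hox genes in the primitive streak and tail bud, and Cdx2 also acts in the trophectoderm. In undifferentiated stem cells the Hox clusters are held silent by Polycomb repression.

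The kept cells numbered 1783 in LB, with 45490517 UMIs and a median of 25418 per cell, and 2705 in LBPXRS, with 51832444 UMIs and a median of 19058. The libraries shared 10 cell barcodes, of 2008 deposited for LB and 3111 for LBPXRS. The libraries also stood apart otherwise: Y-linked genes had 2872 UMIs in LB and 1 in LBPXRS, and genes of chromosome 11, which carries the Hoxb cluster, were lower in LBPXRS by a median of -0.65 on the log2 scale, against -0.16 over all chromosomes. Genes of chromosome 8 were lower by a median of -0.60. The medians for chromosomes 6 (Hoxa), 15 (Hoxc) and 2 (Hoxd) were -0.05, -0.10 and -0.13. With 1 library per condition there is no replicate check and no test. Every interval below covers counting error only, at 95%.

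Promoter sequences of 24 of the 42 members, matched by symbol in RefSeq (GRCm38.p6), were used. The 250 bases before each start were searched on both strands for the letters TTTATG, a CDX-type motif, and TGATNNAT, a motif of the PBX and HOX pair. The CDX-type letters stood before 5 of the 24 genes (Hoxa7, Hoxb8, Hoxd3, Hoxd4 and Hoxd11) and in 10.8% of all 32841 promoters of that length. The PBX and HOX letters stood before 4 (Hoxa2, Hoxb1, Hoxb8 and Hoxd11) and in 7.69% of all. Of the genes with CDX-type letters, Hoxa7, Hoxb8, Hoxd4 and Hoxd11 were above the naive-like level in LB mesoderm-like cells, and Hoxd3 had 3 UMIs in LB. So were 31 of the 32 members with at least 10 UMIs in LB, so nothing is read from this about the letters. Hoxb8 and Hoxd4 are shown as examples, picked with the values known. Hoxb1 is shown because it was above that level in 2 LB populations, as described further on. Capitals mark the matches, at 157 and 143 bases (CDX-type) and 11 bases (PBX and HOX) before the start of Hoxb8, 45 bases (CDX-type) before Hoxd4 and 162 bases (PBX and HOX) before Hoxb1, counted from the RefSeq start. The start of Hoxb1 in the annotation used for coordinates lies 6 bases further upstream, so its match is 156 bases before that start and 244 of the 250 bases are printed. On the same count the Hoxd4 match lies at -10004 bases before the annotated start, that is inside the annotated gene. A match describes letters only.
Hoxb8 (chr11:96281655-96281904, plus strand): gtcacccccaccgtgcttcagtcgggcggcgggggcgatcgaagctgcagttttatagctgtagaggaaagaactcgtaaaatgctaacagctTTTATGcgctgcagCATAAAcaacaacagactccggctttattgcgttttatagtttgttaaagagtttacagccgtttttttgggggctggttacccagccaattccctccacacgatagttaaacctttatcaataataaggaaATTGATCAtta
Hoxd4 (chr2:74721728-74721977, plus strand): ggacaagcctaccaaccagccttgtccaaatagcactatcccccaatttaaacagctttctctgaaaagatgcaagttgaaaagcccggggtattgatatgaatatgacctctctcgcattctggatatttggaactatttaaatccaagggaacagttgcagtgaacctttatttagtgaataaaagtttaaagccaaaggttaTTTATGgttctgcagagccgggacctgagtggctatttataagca
Hoxb1 (chr11:96365508-96365751, plus strand): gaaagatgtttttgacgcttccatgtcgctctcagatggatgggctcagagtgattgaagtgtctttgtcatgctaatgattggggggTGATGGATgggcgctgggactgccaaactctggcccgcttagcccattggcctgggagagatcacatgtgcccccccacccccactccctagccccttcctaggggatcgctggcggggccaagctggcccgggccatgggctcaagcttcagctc
None of the 3 stretches overlapped an annotated exon, and that of Hoxd4 lies inside the annotated spans of Hoxd3 and of Hoxd4 itself. Members without a promoter used here, whether unmatched or left out, included Cdx1, Hoxa4, Hoxb2, Hoxb3, Hoxb5, Hoxb6, Hoxb7, Hoxb9, Hoxb13, Hoxc5, Hoxc6, Hoxc8, Hoxc9, Hoxc10, Hoxc11, Hoxc12 and Hoxc13.

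The first question was which members differed between the libraries. Values are UMIs summed over cells and divided by the total of the library and multiplied by 1000000 (CPM). Of the 33 members with at least 20 UMIs over both libraries, 15 had an LBPXRS level lower by 4-fold or more, 4 a level higher by as much, and 14 neither. Over all 15437 genes with that many UMIs, 7.90% were lower and 5.21% higher by the same rule. On the log2 scale, the median difference (LBPXRS over LB) was -1.69 over the 33 members and -0.15 over all 15437 genes. A library sum cannot tell fewer expressing cells from less RNA per cell, which the values by cell further on address. Tags were read from the 3′ end and are not scaled to length, so members are compared between cells and not ranked against each other.

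Among the Cdx genes, Cdx2 (chr5:147300805-147307270) stood out. It had 2057 UMIs in LB (45.2 CPM), in 349 cells, and 1 UMI in LBPXRS (0.0193 CPM). LBPXRS was thus 2344-fold lower by ratio, with a counting interval of 420 to 92618. Cdx1 UMIs numbered 80 and 4, a 22.8-fold lower level in LBPXRS (8.56 to 85.7). Cdx4, the X-linked member, had 15 and 2 and stayed under the minimum. Most UMIs of all 3 were thus in LB, and the 3 together had 47.3 CPM there against 0.135 CPM in LBPXRS.

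Anterior Hox genes (paralogue groups 1 to 3, 8 members) were mostly LB genes. Their sum was 13.2 CPM in LB and 2.33 CPM in LBPXRS, a ratio of 0.177 (0.144 to 0.216). Hoxb1 (chr11:96365752-96368256), known from the early streak and a segment of the hindbrain, had 256 UMIs in LB (5.63 CPM) and 1 in LBPXRS (0.0193 CPM), 292-fold lower (51.9 to 11566). Its neighbour Hoxb2 had 233 UMIs (5.12 CPM) and 7 (0.135 CPM), 37.9-fold lower (18.1 to 95.4). Both genes were thus high in one library and near zero in the other. Hoxb3, with 23 UMIs, and Hoxd1, with 27, had 0 in LBPXRS. With 3 counts as the floor for that library they were 8.74-fold and 10.3-fold lower. The upper bounds of their LBPXRS to LB ratios were 0.153 and 0.128. Hoxa2, Hoxa3 and Hoxd3 had at most 8 UMIs in either library.

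Central Hox genes (groups 4 to 8, 15 members) summed to 24.3 CPM in LB and 9.11 CPM in LBPXRS, a ratio of 0.374 (0.335 to 0.417). Of the 13 that reached the minimum, 5 were lower, 1 higher and 7 neither. Hoxb6 (chr11:96292476-96301569) had 240 UMIs in LB (5.28 CPM) and 1 in LBPXRS (0.0193 CPM), 273-fold lower (48.6 to 10846). Hoxb8 had 157 (3.45 CPM) and 4 (0.0772 CPM), 44.7-fold lower (17.1 to 166). Hoxc8 had 201 (4.42 CPM) and 7 (0.135 CPM), 32.7-fold lower (15.6 to 82.4). These trunk-level genes were detected in both libraries, yet nearly all of their UMIs were in LB. Hoxb5, with 34 UMIs in LB and 0 in LBPXRS, was 12.9-fold lower with the floor of 3 counts. The upper bound of its LBPXRS to LB ratio was 0.101. Hoxc6, with 86 and 20, was 4.90-fold lower (2.99 to 8.42). Hoxb7, which lies between Hoxb6 and Hoxb8, did not share their difference. Its UMIs numbered 107 (2.35 CPM) and 65 (1.25 CPM), a 1.88-fold lower level (1.37 to 2.59). Hoxa7, at 98 and 93 UMIs, Hoxb4, at 53 and 45, Hoxd4, at 55 and 24, Hoxd8, at 34 and 12, Hoxa5, at 8 and 19, and Hoxc5, at 10 and 10, were also within 4-fold. Hoxc4 was the higher one, with 20 UMIs in LB (0.440 CPM) and 168 in LBPXRS (3.24 CPM), 7.37-fold (4.62 to 12.4). Hoxa4 (4 and 3 UMIs) and Hoxa6 (0 and 1) were under the minimum.

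Posterior Hox genes (groups 9 to 13, 16 members) summed to 20.1 CPM in LB and 24.8 CPM in LBPXRS, a ratio of 1.24 (1.14 to 1.35), so this sum was not lower in LBPXRS as those of the other regions were. It rested on Hoxc13, which gave 603 of the 1287 LBPXRS UMIs. Without Hoxc13 the sums were 19.4 CPM and 13.2 CPM, a ratio of 0.681 (0.616 to 0.754). The members split. On the lower side were Hoxa10, with 112 UMIs in LB (2.46 CPM) and 19 in LBPXRS (0.367 CPM), 6.72-fold (4.11 to 11.6), and Hoxc9, with 162 (3.56 CPM) and 32 (0.617 CPM), 5.77-fold (3.93 to 8.71). Hoxa11 (24 and 1 UMIs) and Hoxd10 (32 and 5) were lower too, by 27.3-fold (4.46 to 1125) and 7.29-fold (2.82 to 24.0). The higher side held the terminal genes of the b and c clusters. Hoxc13 (chr15:102921103-102928814), a gene of hair follicles and the tail, had 32 UMIs in LB (0.703 CPM) and 603 in LBPXRS (11.6 CPM), 16.5-fold higher (11.6 to 24.4). Hoxb13 (chr11:96194316-96197447) had 3 UMIs in LB (0.0659 CPM) and 207 in LBPXRS (3.99 CPM), 60.6-fold higher (20.4 to 296). Hoxc12 had 3 and 78, 22.8-fold higher (7.53 to 113). Between the extremes, Hoxd9 had 141 UMIs in LB (3.10 CPM) and 46 in LBPXRS (0.887 CPM), 3.49-fold lower (2.49 to 4.98), and Hoxc10 141 (3.10 CPM) and 72 (1.39 CPM), 2.23-fold lower (1.67 to 3.01). Hoxa9 (67 and 36 UMIs), Hoxb9 (85 and 129), Hoxd11 (62 and 28) and Hoxd13 (27 and 24) did not reach 4-fold either. Hoxa13 (8 and 0), Hoxc11 (13 and 6) and Hoxd12 (1 and 1) were under the minimum.

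**Figure D1:**
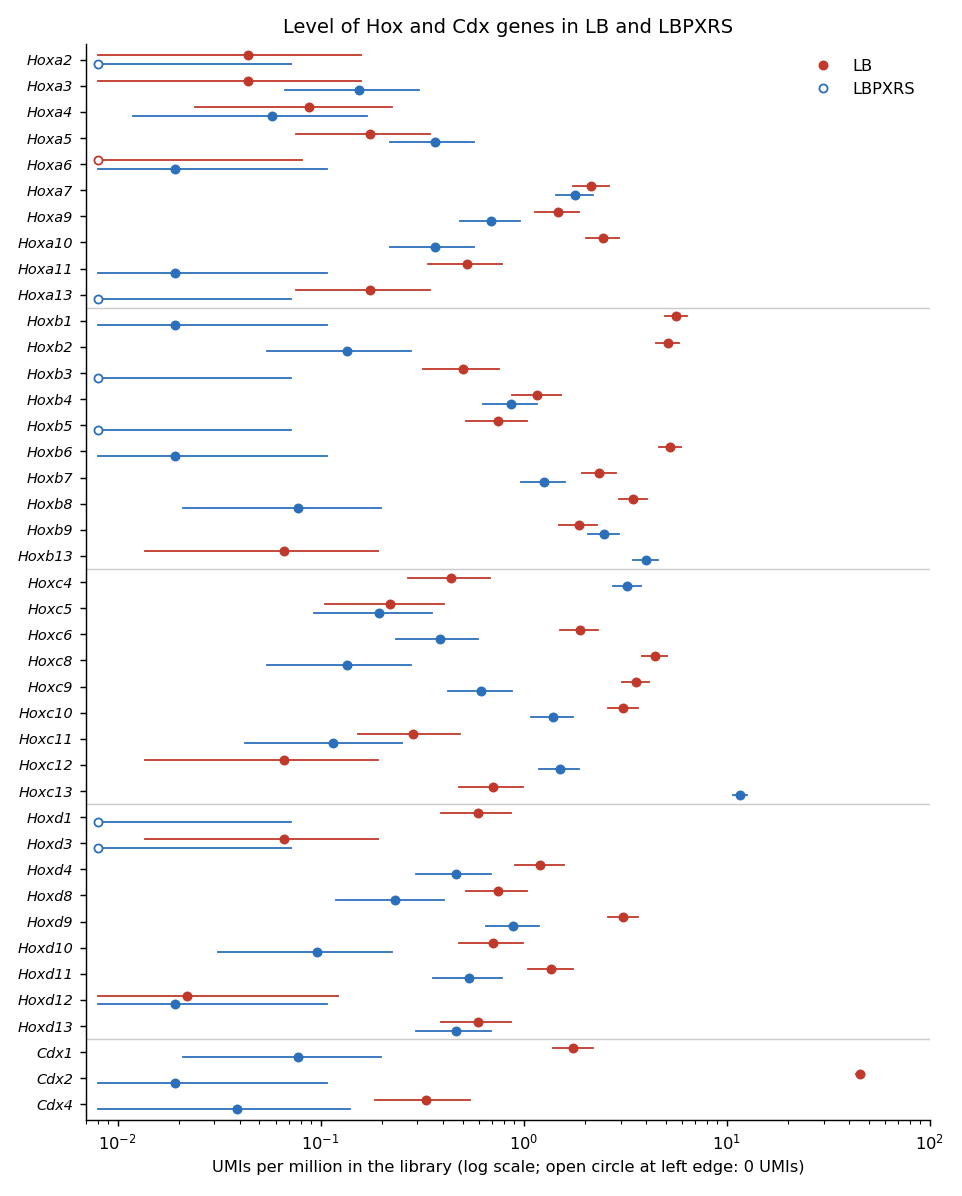
Level of the Hox and Cdx genes described here in the LB (red) and LBPXRS (blue) libraries, in CPM on a log axis, with exact 95% Poisson intervals and open circles for 0 UMIs. Cdx2, Hoxb1, Hoxb2, Hoxb6, Hoxb8 and Hoxc8 lie far to the right in LB, and Hoxb13, Hoxc4, Hoxc12 and Hoxc13 lie further right in LBPXRS.

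By cluster, the ratio of LBPXRS to LB was 0.660 for Hoxa (0.564 to 0.772), 0.338 for Hoxb (0.303 to 0.377), 1.31 for Hoxc (1.19 to 1.45) and 0.322 for Hoxd (0.263 to 0.391). All 39 Hox genes together had 57.6 CPM in LB and 36.3 CPM in LBPXRS, a ratio of 0.630 (0.593 to 0.668). The Hoxc sum was the one above 1, and Hoxc13 gave 603 of its 996 LBPXRS UMIs. Without Hoxc13 the ratio was 0.542 (0.477 to 0.616) for Hoxc and 0.433 (0.405 to 0.463) for all Hox genes. The part of the chromosome 11 shift in the Hoxb values was not tested. Neighbouring genes on the same strand overlap in the annotation for 11 members (Hoxa3, Hoxa4, Hoxa5, Hoxa6, Hoxc5, Hoxc6, Hoxc8, Hoxc9, Hoxc10, Hoxd3 and Hoxd4), so their counts may be shared or lost and are uncertain.

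The second question was which LB cells held these UMIs. LB cells were clustered with all 42 members left out and named from marker genes. The populations were naive pluripotent-like cells (761), Hand1 and Foxf1 mesoderm-like cells (375, led by Prdm6, Foxf1 and Pitx1), primitive streak-like cells (197, led by Sprr2a3, Ptgs1 and T, with interferon genes such as Isg15 and Rtp4 near the top), trophoblast-like cells (65, led by Cxcl10), and 2 clusters without a name, cluster 1 (324, led by Pim2, Fgf5 and Dnmt3b) and cluster 5 (61, led by Slc7a3). The streak-like cells also had the germ cell genes Prdm1, Prdm14, Nanos3 and Dnd1 raised. Dnd1 was at 130 CPM there against 10.2 CPM in the naive-like cells. The stem cell label held for the naive-like cells, where Pou5f1 was at 876 CPM, Nanog at 113 CPM and Zfp42 at 807 CPM. In the mesoderm-like cells these were at 147, 11.1 and 20.4 CPM. The mesoderm gene Hand1 stood at 358 CPM there against 2.10 CPM in the naive-like cells. Pou5f1 was at 953 CPM in cluster 1, 719 CPM in trophoblast-like, 661 CPM in streak-like and 613 CPM in cluster 5 cells. Zfp42 was at 46.0, 45.1, 26.2 and 768 CPM in the same order. The trophoblast-like cells also had T at 133 CPM.

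Hox RNA was found mainly in the mesoderm-like cells. They held 2252 of the 2620 LB Hox UMIs (86.0%), at 259 CPM (248 to 269), against 3.96 CPM (3.16 to 4.91) in the naive-like cells, 37.3 CPM (31.7 to 43.5) in the streak-like and 31.3 CPM (24.3 to 39.7) in the trophoblast-like cells. Cluster 1, at 5.72 CPM (4.23 to 7.56), overlapped the naive-like interval. Each Hox cluster was raised in the mesoderm-like cells: Hoxa stood at 38.3 CPM against 0.382 in the naive-like cells, Hoxb at 114 against 1.29, Hoxc at 66.2 against 1.96 and Hoxd at 39.8 against 0.334. All 3 regions were raised as well, at 50.3 CPM for anterior, 119 CPM for central and 89.3 CPM for posterior genes, against 0.525, 0.859 and 2.58 CPM. In the streak-like cells the sums were 29.7 CPM for anterior, 4.14 CPM (2.45 to 6.54) for central and 3.45 CPM (1.93 to 5.69) for posterior genes, and only the posterior sum was not above the naive-like level. Of the 162 Hox UMIs there, Hoxb1 gave 91, Hoxb2 25 and the posterior gene Hoxd9 11. In the trophoblast-like cells the sums were 20.7 CPM for posterior, 8.74 CPM for central and 1.84 CPM (0.502 to 4.71) for anterior genes, but the 45 posterior UMIs came from 9 of 65 cells and all 36 Hoxc UMIs from 3 cells. Free RNA captured with a cell would add UMIs to every population, and the naive-like level is an upper estimate of it in those cells. Its level in the other populations, whose depths differ, was not measured.

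A member was said to be above the naive-like level where it had at least 10 UMIs in a population and its interval lay wholly above that of the naive-like cells. In the mesoderm-like cells this held for 31 of the 32 members with at least 10 UMIs in LB, against 37.0% of the 15248 genes with that many. The exception was Hoxc13, of whose 32 UMIs 27 were in naive-like and 4 in mesoderm-like cells. In the streak-like cells 5 members passed (Hoxb1, Hoxb2, Hoxd9, Cdx1 and Cdx2), against 30.4% of all genes. In the trophoblast-like cells 2 passed (Hoxc9 and Cdx2), against 26.4%. Cdx2 alone passed in cluster 1, against 33.5%, and no member passed in cluster 5, against 14.8%. Most of the 32 members reached the 10 UMIs in LB through their mesoderm-like cells (Hoxd10 with 32 of 32 UMIs, Hoxb5 with 34 of 34), so the filter itself bears on these counts, and nothing is read from them against the background.

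**Figure D2:**
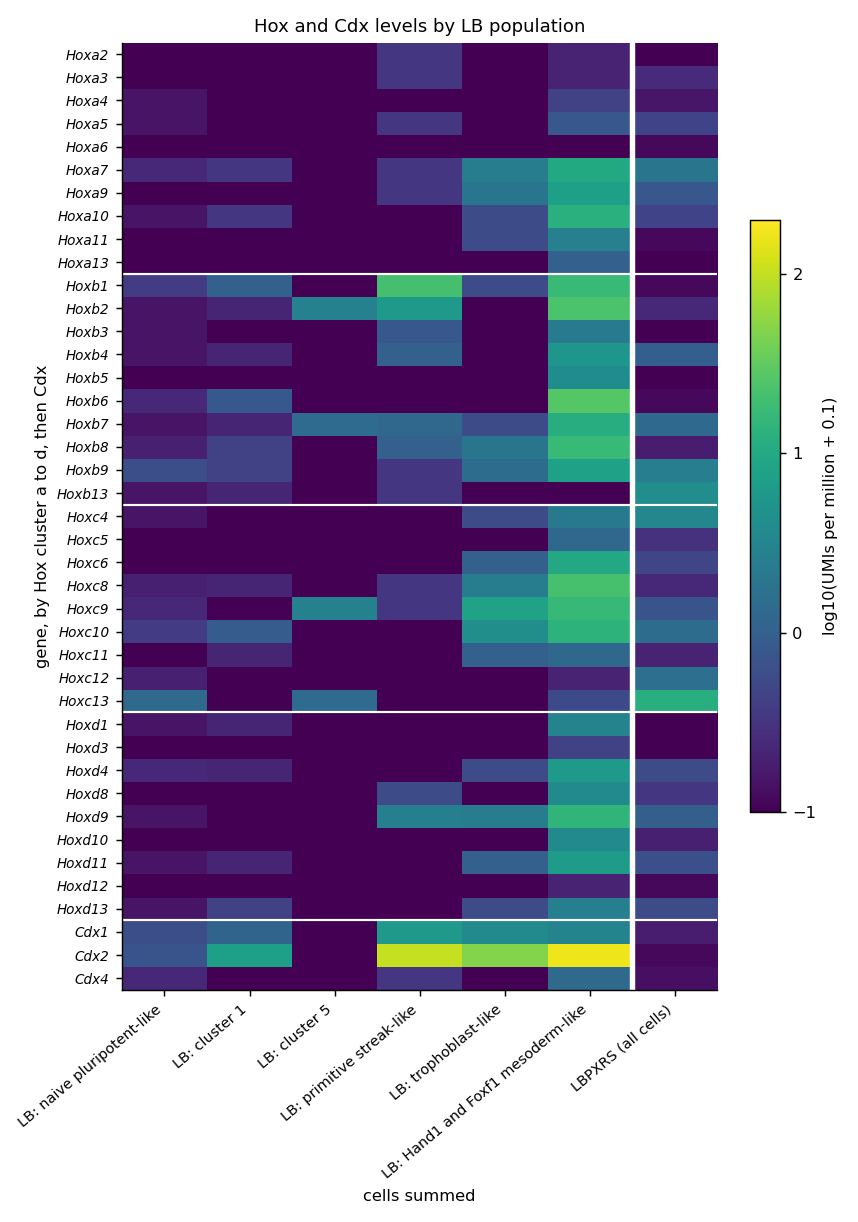
Level of the members described here (rows) in the 6 LB populations and in all LBPXRS cells (columns), coloured by log10(CPM + 0.1). The mesoderm-like column is bright through all 4 Hox clusters, the streak-like column at Hoxb1, Hoxb2 and Cdx2, and the LBPXRS column at Hoxc13, Hoxb13 and Hoxc4.

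Single genes followed these patterns. Hoxb6 had 231 of its 240 LB UMIs in mesoderm-like cells and 3 in naive-like cells. Hoxc8 had 192 of 201 there, and Hoxa10 had 108 of 112. Few UMIs of these genes lay in any other population. Hoxb1 was spread over more than one, with 150 UMIs in mesoderm-like, 91 in streak-like, 8 in cluster 1 and 6 in naive-like cells. Cdx2 had 1437 UMIs in mesoderm-like, 439 in streak-like, 106 in trophoblast-like, 62 in cluster 1 and 13 in naive-like cells. Hoxc9 was the Hox gene above the naive-like level in the trophoblast-like cells, with 17 UMIs, but these came from 3 cells.

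Clustering at a finer resolution, again with all members left out, gave smaller clusters that differed in their Hox content. A cluster of 182 cells led by Pitx1, 2610528A11Rik and Col1a1 held 1959 Hox UMIs, 74.8% of all those in LB, and 27 Hox genes and 2 Cdx genes, of the 32 members with at least 10 UMIs in LB, were above the naive-like level in it, against 33.1% of all genes. Those members owe many of their UMIs to these cells, so nothing is read from that count. Its levels were 47.4 CPM for anterior, 211 CPM for central and 161 CPM for posterior genes. A cluster of 106 cells led by Mesp1, Mesp2 and Lhx1 and left without a name (streak and mesoderm markers tied) held 217 Hox UMIs, and 4 members passed there, Hoxb1 and Hoxb2 among them, against 24.5% of all genes. It had 74.0 CPM for anterior, 13.4 CPM for central and 9.36 CPM for posterior genes, with 95 UMIs of Hoxb1 and 54 of Hoxb2. A cluster of 173 streak-like cells was led by Igfbp3, Fst and Defa30, with T (brachyury) also among its leading genes. It had 5 members above that level, Hoxb1 (91 UMIs) and Hoxb2 (23 UMIs) among them, against 26.8% of all genes. Its posterior sum rested on 3 UMIs, and Hoxd9, which passed in the larger streak-like population, did not pass there. A cluster of 67 cells led by Vstm2b, Kdr and Asb4, with the blood vessel factor Etv2 among its leading genes, passed for Hoxb1 (19 UMIs) and Hoxb2 (24 UMIs), against 20.2% of all genes, and held 0 UMIs of the Hoxc cluster and 4 posterior UMIs.

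Cdx2 and the Hox sum did not run in parallel through these clusters. Cdx2 was at 265 CPM in the Pitx1-led cluster (251 to 281), 65.1 CPM in the Mesp1-led cluster (54.9 to 76.5) and 46.8 CPM in the streak-like cluster (40.2 to 54.0). In the Kdr-led cluster, all 3 Cdx genes together had 3 UMIs (1.79 CPM, 0.369 to 5.23) while the Hox sum was 40.6 CPM (31.5 to 51.4). The reverse held in a cluster of 93 cells led by Dnd1, Rab6b and Sprr2a3, named primordial germ cell-like by the marker rule. It also had the germ cell gene Prdm14 among its leading genes. There Cdx2 had 285 UMIs in 73 cells (142 CPM, 126 to 159), the Hox sum was 12.9 CPM (8.45 to 19.0), and Cdx2 alone of the members was above the naive-like level, against 24.0% of all genes. The trophoblast-like cluster of 63 cells had Cdx2 at 48.6 CPM (39.7 to 59.0) and a Hox sum of 31.6 CPM (24.5 to 40.2).

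The third question was how the UMIs were spread over single cells. In LB most Hox UMIs lay in few cells, while in LBPXRS they lay in more cells with fewer in each. No LBPXRS population that should lack Hox RNA was identified, so the share of cells that free RNA would give there is not known, and the LBPXRS shares are not read as shares of expressing cells. In LB 403 of 1783 cells (22.6%) had a Hox UMI, with a mean of 6.50 Hox UMIs in such a cell, and in LBPXRS 1246 of 2705 (46.1%), with a mean of 1.51. With every cell drawn down to 5000 UMIs, which left out 50 LB and 84 LBPXRS cells, the shares were 10.7% (9.26 to 12.2) and 16.1% (14.7 to 17.6). The same drawn-down share was 37.6% (32.5 to 42.8) in the mesoderm-like cells, 8.33% (4.84 to 13.2) in the streak-like cells and 3.06% (1.95 to 4.55) in the naive-like cells. Before drawing down, the median depths of these 3 populations were 23018, 21609 and 27252 UMIs. The 100 cells with the most Hox UMIs held 77.2% of them in LB and 18.9% in LBPXRS. At full depth 86 LB cells had at least 5 different Hox genes, holding 70.6% of the Hox UMIs, and 39 had at least 10. In LBPXRS 3 cells had at least 5 and none of the 2705 had 10. The highest number in a cell was 20 in LB and 8 in LBPXRS.

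**Figure D3:**
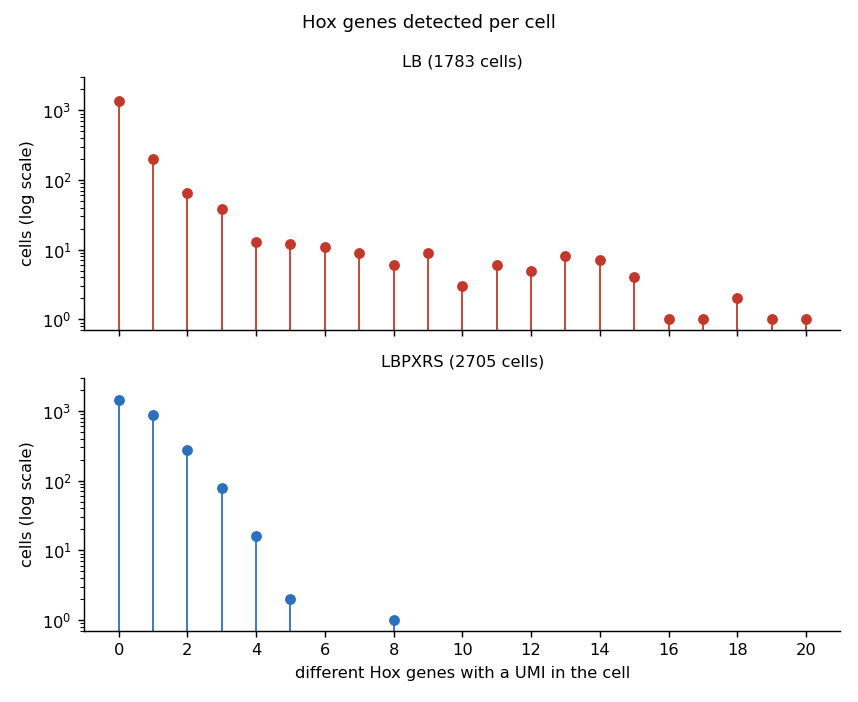
Number of cells (log axis) by the number of different Hox genes with a UMI, at full depth, in LB (above) and LBPXRS (below). The LB distribution has a long tail to 20 genes, held by 86 cells with at least 5, while 872 LBPXRS cells had 1 Hox gene and the tail ended at 8.

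Of the 86 LB cells with at least 5 Hox genes, 82 were mesoderm-like. All 86 had a central gene, 78 a posterior gene, 51 an anterior gene and 44 all 3. Of the 39 cells with at least 10, all had a central and a posterior gene, 25 an anterior gene, and 35 all 4 clusters. Hoxb6 and Hoxc9 were each detected in 55 of the 86, Hoxc8 in 54, Hoxb8 in 53 and Hoxd9 in 51, but Hoxb1 in only 11. Among the 201 LB cells with a single Hox gene the picture differed. There Hoxb1 was the gene in 41 cells (20.4%), Hoxc13 in 26 and Hoxb2 in 18. In the 872 LBPXRS cells with a single Hox gene it was Hoxc13 in 317 (36.4%), Hoxb13 in 100 and Hoxc4 in 71. The number of genes detected in a cell grows with its depth and with its Hox RNA, so these counts describe detection.

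The Hox clusters lie on 4 chromosomes, and co-detection shows whether they were on in the same cells. After drawing down to 5000 UMIs, 67 of the 185 LB cells with a Hox UMI (36.2%, 29.3 to 43.6) had genes of at least 2 clusters. In LBPXRS this was 37 of 423 (8.75%, 6.23 to 11.9). At full depth the gap was smaller, with 130 of 403 in LB (32.3%, 27.7 to 37.1) and 296 of 1246 in LBPXRS (23.8%, 21.4 to 26.2). Drawn down, all 4 clusters were seen in 11 LB cells, each of them mesoderm-like, and in 1 LBPXRS cell. Within the mesoderm-like cells, a Hoxc UMI was found in 30 of 45 cells with a Hoxd UMI (66.7%) and in 28 of 309 without (9.06%). A Hoxd UMI was found in 26 of 94 cells with a Hoxb UMI (27.7%, 18.9 to 37.8) and in 19 of 260 without (7.31%, 4.46 to 11.2). Hoxa and Hoxc were likewise paired, a Hoxc UMI being found in 29 of 40 cells with Hoxa (72.5%) and in 29 of 314 without (9.24%). In LBPXRS the last comparison gave a Hoxc UMI in 9 of 69 cells with Hoxa (interval 6.14% to 23.3%) and in 239 of 2552 without (8.26% to 10.6%), and these intervals overlapped. Hoxa and Hoxd were paired there too: a Hoxa UMI was found in 6 of 34 cells with Hoxd (6.76% to 34.5%) and in 63 of 2587 without (1.88% to 3.11%). The intervals of that pair and of the mesoderm-like pairs given above did not overlap.

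Cdx2 and Hox genes were compared within populations, so that a shared population does not by itself pair them. In the mesoderm-like cells, drawn down to 5000 UMIs, 63 of 104 cells with a Cdx2 UMI also had a Hox UMI (60.6%, 50.5 to 70.0), against 70 of 250 without Cdx2 (28.0%, 22.5 to 34.0). In the streak-like cells the shares were 5 of 56 (8.93%, 2.96 to 19.6) and 11 of 136 (8.09%, 4.11 to 14.0), which were not distinguishable at this depth. Trophoblast-like cells gave 1 of 9 and 3 of 54. Within the Pitx1-led cluster alone the gap was smaller, 57 of 88 (64.8%, 53.9 to 74.7) against 41 of 84 (48.8%, 37.7 to 60.0), and these intervals overlap. At full depth they did not, with 111 of 127 (87.4%, 80.3 to 92.6) against 32 of 55 (58.2%, 44.1 to 71.3). The Mesp1-led cluster gave 4 of 12 against 23 of 91 drawn down, with overlapping intervals. At full depth it gave 22 of 28 (78.6%, 59.0 to 91.7) against 33 of 78 (42.3%, 31.2 to 54.0), which did not overlap. Deeper cells are likelier to show both a Cdx2 and a Hox UMI, and the full-depth groups were not matched in depth. The full-depth gaps are therefore not read as pairing. The naive-like cells had no Cdx2 UMI in 752 drawn-down cells, so the share with a UMI at that depth could be as high as 0.399% by 3 counts. At full depth 11 of 761 had one (1.45%, 0.724 to 2.57).

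**Figure D4:**
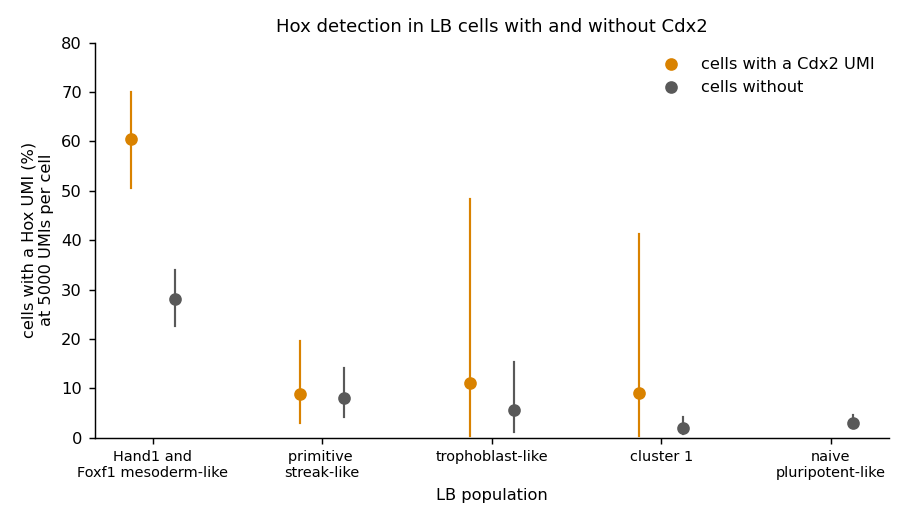
Share of LB cells with a Hox UMI, in percent at 5000 UMIs per cell, among cells with (orange) and without (grey) a Cdx2 UMI in 5 populations, with exact 95% Clopper-Pearson intervals. The shares are 60.6% and 28.0% in the mesoderm-like cells and overlap in the streak-like, trophoblast-like and cluster 1 cells, and the naive-like cells had no Cdx2 UMI at this depth.

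The fourth question was how LBPXRS compared with the undifferentiated LB cells alone, since much of the LB signal came from its mesoderm-like cells. Against the naive-like cells the Hox sum reversed direction: it was 36.3 CPM in LBPXRS (34.7 to 37.9) and 3.96 CPM in naive-like LB cells (3.16 to 4.91), 9.15-fold higher (7.34 to 11.5). Of 19 members with at least 20 UMIs in this comparison, 17 passed 4-fold on the higher side in LBPXRS and 0 on the lower side, against 6.88% higher and 3.38% lower of 14550 genes. Most of the 19 reached the minimum through their LBPXRS counts, so this count is a description. The 4 genes already high in the whole-library comparison were among the 17, though not all at the highest ratios. Hoxc13 had 27 UMIs in naive-like cells (1.29 CPM) and 603 in LBPXRS (11.6 CPM), 9.02-fold higher (6.14 to 13.8). Hoxb13 had 1 and 207, Hoxc4 1 and 168, and Hoxc12 2 and 78. Hoxb7, with 1 and 65 UMIs, was 26.3-fold higher (4.55 to 1053). Genes that were within 4-fold between the libraries were now higher, among them Hoxa7 with 3 UMIs (0.143 CPM) and 93 (1.79 CPM), and Hoxb9 with 11 (0.525 CPM) and 129 (2.49 CPM), the last 4.74-fold higher (2.56 to 9.73). Hoxb1, Cdx1 and Cdx2 lay on the other side, with 6, 11 and 13 UMIs in naive-like cells and 1, 4 and 1 in LBPXRS, and did not reach 20 UMIs.

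**Figure D5:**
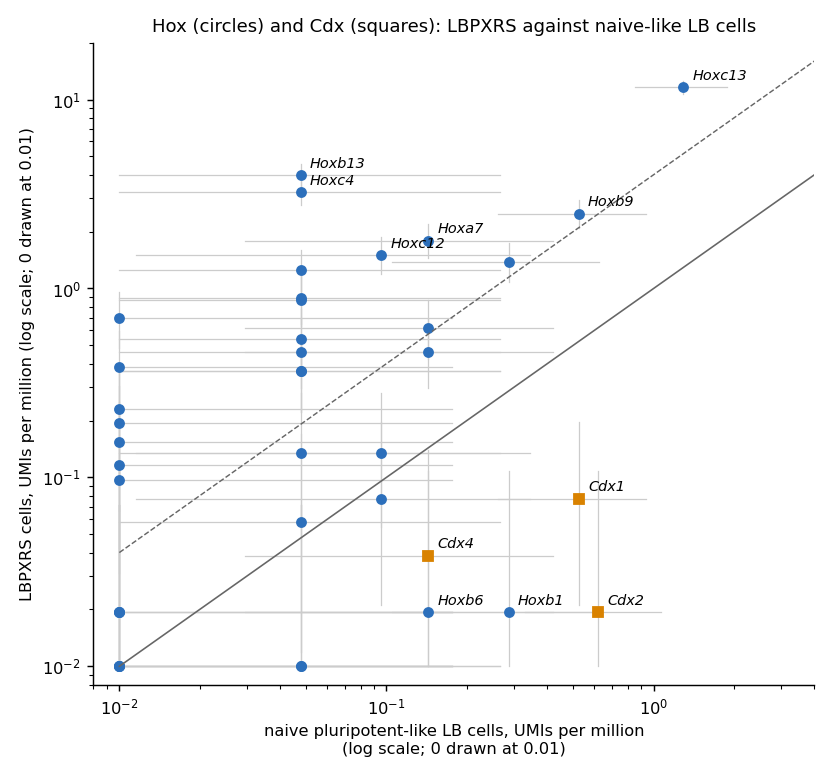
Level of the members described here in naive pluripotent-like LB cells (horizontal) and in LBPXRS cells (vertical), in CPM on log axes with exact 95% Poisson intervals. The solid line marks equal levels and the dashed line a 4-fold higher level in LBPXRS, and values of 0 are drawn at 0.01. Most Hox genes lie above the solid line, with Hoxc13 at 11.6 against 1.29, and the 3 Cdx genes lie below it.

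In LBPXRS Hox UMIs were found in all 7 clusters of cells. The Hox sum was 49.2 CPM (42.6 to 56.4) in a cluster of 234 cells led by Krt8, Krt18 and Sct, an interval above those of 5 of the other 6 clusters, among them the cluster led by Chac1 and Trib3 (33.6 CPM, 30.1 to 37.3). It overlapped that of a cluster of 663 cells (39.0 CPM, 35.5 to 42.8). The lowest sum, 20.3 CPM (8.18 to 41.9), was in a cluster of 77 cells with a median of 3291 UMIs. Hoxc13 lay between 9.49 and 16.1 CPM in the other 6. At 5000 UMIs per cell, Hoxc13 was found in 154 of 2621 LBPXRS cells (5.88%, 5.01 to 6.85), in 10 of 752 naive-like LB cells (1.33%, 0.639 to 2.43) and in 2 of 354 mesoderm-like LB cells (0.565%, 0.0685 to 2.03). Its share was thus highest in the LBPXRS cells and its LB share was no higher in the cells with the most Hox RNA. Where LBPXRS markers are concerned, Pou5f1 was at 990 CPM, Nanog at 177 CPM and Zfp42 at 515 CPM, while T was at 0.0579 CPM and Mesp1 at 0.540 CPM.

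Other genes marked the LB cells with several Hox genes. After drawing down, 90 LB cells had UMIs of at least 2 different Hox genes, 82 of them mesoderm-like. The 10 genes outside the Hox and Cdx families with the highest CPM ratio in these cells over the other 1643 included 2610528A11Rik (85.6-fold, 56.4 to 134), Pitx1 (52.2-fold, 40.3 to 68.2), Igf2, Meis2, Greb1, Tmem119, Adgra2, Tgfb2 and Dgkk (8.74-fold, 6.08 to 12.4). Pitx1 is a homeodomain factor of the hindlimb and the posterior mesoderm, and Igf2 a fetal growth factor. Meis2, a DNA-binding partner of Hox proteins, was at 27.1 CPM in the Hox-rich cells and 2.32 CPM in the others. The cells were chosen by their Hox genes within a single library, so the list is a description of them.

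Genes that work with the Hox clusters were taken as lists. Among 5 antisense and non-coding genes of the clusters with at least 20 UMIs, 3 were at least 4-fold lower in LBPXRS and 0 higher: Hoxb3os (157 and 8 UMIs in LB and LBPXRS), Hoxa11os (48 and 3) and Haglr (29 and 2). Hotairm1 had 110 and 409, under 4-fold higher, and Hoxaas3 22 and 42. The list's median log2 ratio was -4.05, and Hotair and Hottip had 0 UMIs in both. Of 5 ParaHox, Evx and related genes 3 were lower (Evx1 with 519 and 0 UMIs, Gbx2 with 149 and 37, Meox1 with 21 and 0) and 1 was higher (Gsx2, 3 and 79). The median of this list was -2.20. The 9 Hox cofactors had a median of -0.39, and Pbx3 was among the lower ones (10.6 and 2.41 CPM).

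Signals of the posterior embryo were also compared. Of 17 posterior signals and their targets 12 were lower in LBPXRS and 1 higher, with a median log2 ratio of -5.48. T, a streak gene, had 4589 UMIs in LB and 3 in LBPXRS, the streak signal Fgf8 had 5148 and 38, and Wnt3 had 1373 and 35. Fgf4, made by pluripotent cells, was the higher one at 39.5 and 205 CPM. In the retinoic acid list 3 of 10 were lower and 0 higher, among them Cyp26a1, which degrades retinoic acid (496 and 19 UMIs), and the receptor gene Rarg (1198 and 303). Its median was -0.80. Polycomb and trithorax genes gave 0 of 24 lower, with a median of 0.04. The core Polycomb genes Ezh2 (111 and 116 CPM), Eed (81.0 and 111 CPM) and Suz12 (77.3 and 61.0 CPM) were within 1.5-fold.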

How the data were processed

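Droplet single-cell RNA libraries (10x Genomics 3′, version 2 chemistry) of 2 cultures were analysed. The deposited matrices hold UMI counts per gene and barcode, made with Cell Ranger 4.0.0 on mm10 per the submitters' processing notes and not normalised. Cell calling settings were not given in the sources used here. The members, lists, rules and alternatives were chosen with earlier results of these data known.

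Barcodes with at least 1000 genes and at most 10% mitochondrial UMIs were kept, leaving out 225 in LB and 406 in LBPXRS. Scrublet marked 12 LB cells (0.673%) and 14 LBPXRS cells (0.518%) as doublets. These stayed in, and an alternative removed them. Intervals are exact at 95%: Poisson for counts, conditional binomial for ratios, Clopper-Pearson for shares. They cover counting error only, as does the floor of 3 counts used for a count of 0. PCR duplicates were already collapsed into UMIs. A gene was called by size alone, at a CPM ratio of at least 4 with at least 20 UMIs over both libraries. The rule was tested on simulated counts.

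Each library was clustered with scanpy 1.11.5 without Hox and Cdx genes (log-normalised to 10000 UMIs, 2000 variable genes, 30 components, 15 neighbours, Leiden resolution 0.5). A cluster was named where at least 3 markers of a class reached a CPM of 5 and a log2 ratio of 1 over the other cells, with further conditions on ties, medians, depth and leading genes. These thresholds were set after clusters of these data had been seen, and names may differ from those of the study. No LBPXRS cluster reached a name. Shares come from cells thinned once at random to 5000 UMIs. Gene positions come from a GENCODE annotation of the same build, in which 32235 of 32285 identifiers (99.8%) were found.

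A few items that these rules name are not reported here. Named genes were the members, with full values for those with at least 100 UMIs in LB or higher in LBPXRS, the list genes, and the 10 other genes with the highest ratio in Hox-rich cells at a CPM of at least 20. The gene lists were the antisense and non-coding genes (11 of 14 found), ParaHox and Evx, cofactors, posterior signals, retinoic acid, and Polycomb and trithorax. Alternatives were other barcode filters, TMM scaling (edgeR 4.0.16), size factors (DESeq2 1.42.0), other UMI minimums, a pseudocount, other depths, another seed, a finer clustering and one with the members included.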

Additional observations from a re-analysis of the deposited data

How the results depend on the processing

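Of 59 alternative values, 41 stayed within their interval or within 1.5 times the count, 15 moved and 3 reversed. The counts of 15 lower and 4 higher members did not change with TMM or DESeq2 scaling, without doublets, without low-mitochondrial barcodes or with every barcode. A minimum of 100 UMIs gave 9 lower members, and a pseudocount of 1 CPM gave 6 lower and 2 higher, since it shrinks low genes. The Hox ratio of LBPXRS to LB was 0.701 with TMM and 0.714 with DESeq2 scaling, against 0.630. Against naive-like LB cells, an alternative chosen after seeing the data, it was 9.15, with 0 members lower and 17 higher. Leaving out Hoxc13, also chosen after seeing the data, gave 0.433 for all Hox genes and turned the direction of the posterior sum (1.24 to 0.681) and of the Hoxc sum (1.31 to 0.542). Shares of cells move with depth by construction. The share with a Hox UMI was 14.9% in LB and 28.4% in LBPXRS at 10000 UMIs, and 22.6% and 46.1% unthinned. Among mesoderm-like cells with Cdx2 it was 75.6% at 10000 UMIs and 84.0% unthinned, and among those without Cdx2 42.5% unthinned. No paired analysis was possible because each condition has 1 library. Leaving out a library was not possible for the same reason, and the alternative with every barcode was not run for values by population, which need clustered cells.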
